A study of Homo sapiens with 6 samples.

Results

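The cytosolic ribosomal protein genes were followed in CAL51 cells, an established human triple-negative breast cancer (TNBC) line, with and without knockout of TREX1, an exonuclease that degrades DNA in the cytosol. The genes were taken by symbol from a table of 14788 gene rows: every row named RPL or RPS followed by a digit, with RPLP0, RPLP1, RPLP2 and RPSA, and without the RPS6K kinases and the rows named as numbered pseudogenes. This gave 85 rows, of which 31 encode small subunit proteins, 46 encode large subunit proteins, 6 encode paralogs (RPL7L1, RPL22L1, RPL26L1, RPL36AL, RPL39L and RPS27L) and 2 are antisense transcripts (RPL26L1-AS1 and RPL30-AS1). The 77 small and large subunit genes are called core genes here. No expression value entered the rule, but the members were proposed with earlier results of these data known. RPL27 and RPS27L were marked beforehand to be reported by name.

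Bulk polyA RNA libraries were compared in 3 groups of 2: CAL51-Ctrl, CAL51-TREX1 KO-1 and CAL51-TREX1 KO-2. The knockouts were made with 2 different guide RNAs in a CRISPR v2 lentivirus, and the deposited read-me speaks of knockout clones without saying how many lie behind each library. No label gives the vector or guide of the control cells, any treatment, or whether the 2 libraries of a group were grown apart. The p-values therefore cover the spread among these 6 libraries and no more, which may be technical. TREX1 itself is not analysed here. The table holds log2 CPM, the log2 of reads scaled to library size, from which whole reads were recovered, with 13222933 to 25785055 reads per library. Both control libraries (22941234 and 25785055 reads) were deeper than every knockout library (13222933 to 20154836). Depth therefore goes with knockout in this design and cannot be told apart from it. The fewest reads were in KO-2 replicate 1, where 61 genes had 0 reads; each of the other libraries had 5 to 16 such genes. Epithelial KRT8 and KRT18 were at 9.57 to 9.93 and 8.60 to 9.01 log2 CPM, KRT19 was at 8.23 to 8.85 and EPCAM was at 8.03 to 8.31. CDH1, also epithelial, was at only 4.84 to 5.41, below mesenchymal VIM at 6.20 to 6.74. Over both guides KRT8, KRT18, KRT19, EPCAM and VIM rose and ERBB2 fell (limma, adjusted p below 0.05), while CDH1 was not called. ERBB2 was at 7.35 to 7.64, the leukocyte gene PTPRC was at 3.95 to 4.35 and the endothelial gene CDH5 at 3.46 to 4.05, while ESR1 and PGR were not analysed here.

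A ribosome joins a small subunit, which decodes the messenger RNA, with a large subunit, which forms the peptide bond. Most ribosomal protein messenger RNAs begin with a 5′ terminal oligopyrimidine (TOP) tract, an unbroken run of C and T in the gene, through which mTOR and LARP1 control their translation together with that of elongation factors. Free ribosomal proteins, RPL5 and RPL11 above all, bind MDM2 and so stabilise p53 when ribosome assembly fails. Several core proteins have a close paralog from a second gene that can take the same place in the ribosome.

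The start of the gene is shown for 6 members on which the results turn, to set core genes beside paralogs. Each line gives 10 bases before and 20 bases from the RefSeq start (GRCh38.p14), 5′ to 3′ on the gene's strand, with the longest C/T run that touches the window in capitals.
RPLP2, chr11:809957-809986, plus strand: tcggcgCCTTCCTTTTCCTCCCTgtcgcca
RPS19, chr19:41860245-41860274, plus strand: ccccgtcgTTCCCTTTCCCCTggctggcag
RPL27, chr17:42998409-42998438, plus strand: gtgaaaggttagcggaagtgTCCTTCTTTC
RPL22L1, chr3:170870176-170870205, minus strand: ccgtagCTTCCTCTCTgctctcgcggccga
RPS27, chr1:153990752-153990781, plus strand: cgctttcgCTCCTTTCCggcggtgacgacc
RPS27L, chr15:63157458-63157487, minus strand: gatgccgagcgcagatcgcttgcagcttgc

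The run of RPL27 goes on past the window and is 16 bases long, and the RPS27L window holds no run of 8 or more. A run of at least 8 C or T, read on the gene's strand, touched the window in 55 of the 62 core genes with a start in the RefSeq table (88.7%), against 21.6% of all 27305 genes in that table. Small subunit genes had one in 21 of 24 and large subunit genes in 34 of 38, whereas 2 of 5 paralogs had one. Among the core genes with a run, 30 of 55 rose over both guides (limma, adjusted p below 0.05), with a median log2 fold change of 0.19. Of all genes tested, 14.6% rose. Of the 7 without a run (RPL3, RPL6, RPL12, RPL36, RPS3A, RPS4X and RPS29), 3 rose and the median was 0.14, too few genes to compare with the others. RPL27, which fell, has a run. The split is by this run, not by a TOP tract at the first base. The run of RPL27 begins downstream of its RefSeq start, while RPL12 and RPS3A open there with shorter C/T runs. A match is a description of these letters only.

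In the control cells the core genes were among the abundant transcripts, with a median of 8.30 log2 CPM and 49 of 77 at 8 or more. Per kb of transcript, the median level was 8.90 log2 CPM per kb, from 1.47 for RPS10 to 10.65 for RPS2. The low end was held by genes whose exons overlap another coding gene on the same strand: the 9 of this kind (RPL17, RPL22, RPL26, RPL36, RPL36A, RPS10, RPS13 and RPS15A among them) had a median of 5.02 log2 CPM per kb, against 9.01 for the other 68. How reads in shared exons, or reads that fit a pseudogene as well, were counted is not given in the sources available, so values of these genes are uncertain. RPS10, a small subunit protein, was counted with 18 to 52 reads per library.

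Ribosomal protein genes took a slightly larger share of the reads in both knockouts. The 85 rows held 2.97% and 2.95% of reads in the control libraries, 3.20% and 3.16% in KO-1, and 3.37% and 3.21% in KO-2. All 4 knockout libraries thus lay above both control libraries, and the group means were 2.96% ± 0.015, 3.18% ± 0.024 and 3.29% ± 0.12 (SD, n = 2 each). Both subunits took part, the small subunit genes going from 1.10% and 1.09% in control to between 1.16% and 1.26%, and the large subunit genes from 1.81% and 1.80% to between 1.94% and 2.04%. In bulk RNA these are shares of the RNA sampled, and more ribosomal protein RNA per cell cannot be told apart from less of other RNA. Of 12 marker genes of other cell types (leukocyte, endothelial, red cell, fibroblast), 6 had values, and their summed level was 57.2 and 57.7 CPM in control, 69.9 and 68.6 in KO-1, and 60.5 and 66.9 in KO-2. COL1A1 rose and CDH5 fell among them, while CD3E, CD68, CD79A, HBA1, HBB and DCN were not analysed here, and their part in the share was not tested.

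**Figure D1:**
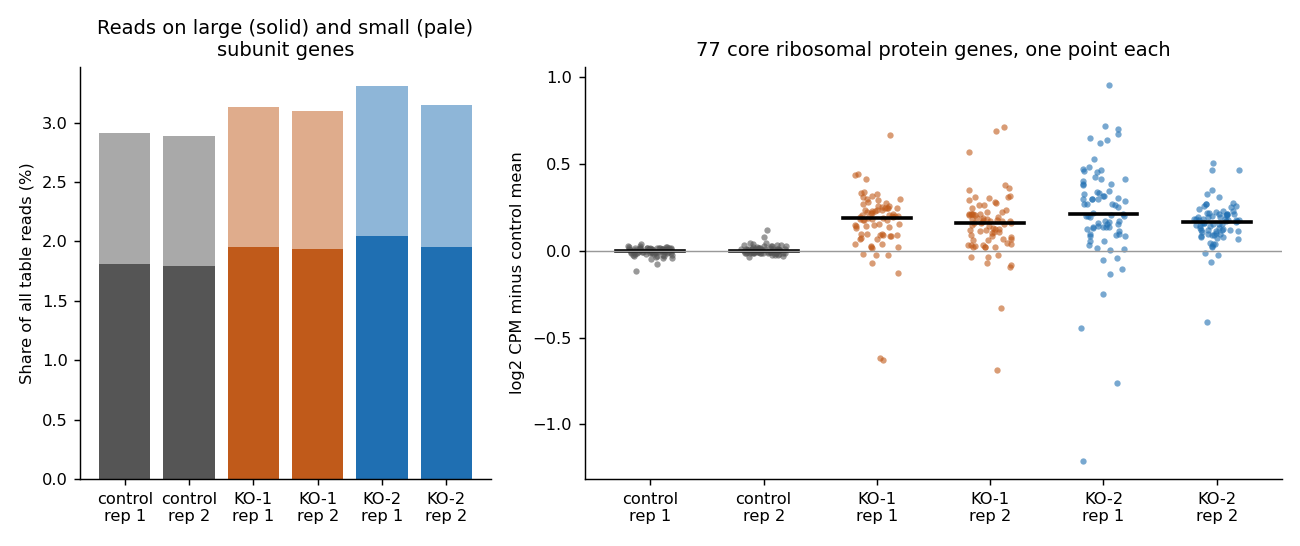
Left, the share of all reads in the table (%, from 0) on large subunit genes (solid) and small subunit genes (pale) in each of the 6 libraries. Right, each point is 1 of the 77 core genes, as log2 CPM minus its control mean, with a black line at the library's median: the medians are 0.19 and 0.16 in KO-1 and 0.21 and 0.16 in KO-2, and the points of KO-2 replicate 1 are the most scattered (control points are measured from their own mean).

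Gene by gene the rise was small and broad. All 85 rows passed the filter on low values, and in the comparison of both guides with control (limma, adjusted p below 0.05) 45 of 85 rose, where 14.6% of the 13765 genes tested rose. RPL27 and RPL22L1 fell, where 14.9% of all genes fell. The median log2 fold change over the 85 rows was 0.19, against -0.01 over all genes tested, and 77 of 85 were above 0. The genes that rose did so by 0.14 or more, with a median of 0.26, and for 70 of the 85 rows the 95% confidence interval lay wholly below 0.5. Other abundant genes also rose more often than all genes. Of the 1973 other genes with a mean of at least 7 log2 CPM, 555 rose (28.1%), 324 fell and the median was 0.04. The reason for this excess was not tested. Among 1640 other genes with short transcripts, 264 rose, 262 fell and the median was 0.01.

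Both subunits were represented. Of the small subunit genes, 16 of 31 rose, 0 fell and the median was 0.15. Of the large subunit genes, 27 of 46 rose, RPL27 fell and the median was 0.20. All 4 knockout libraries lay above both control libraries for 65 of 85 rows (22.3% of all genes tested) and below both for RPL27, RPL22L1, RPL7L1 and RPLP0 (24.0% of all genes). The count of 45 depended on the estimate of the spread and on single libraries. Without a trend of variance on expression level it came to 5 (5.88% of members, with 7.48% of all genes higher in that fit), RPL19, RPLP2, RPS19 and RPS27L among them, named after their values were seen; the members' share was then no larger than that of all genes. With control replicate 1 left out it was 13 (15.3%, all genes 5.17%), with control replicate 2 left out 15 (17.6%, all genes 5.99%), and with KO-1 replicate 1 left out 26 (30.6%, all genes 9.02%), while the median stayed between 0.14 and 0.24 in the 17 alternatives.

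**Figure D2:**
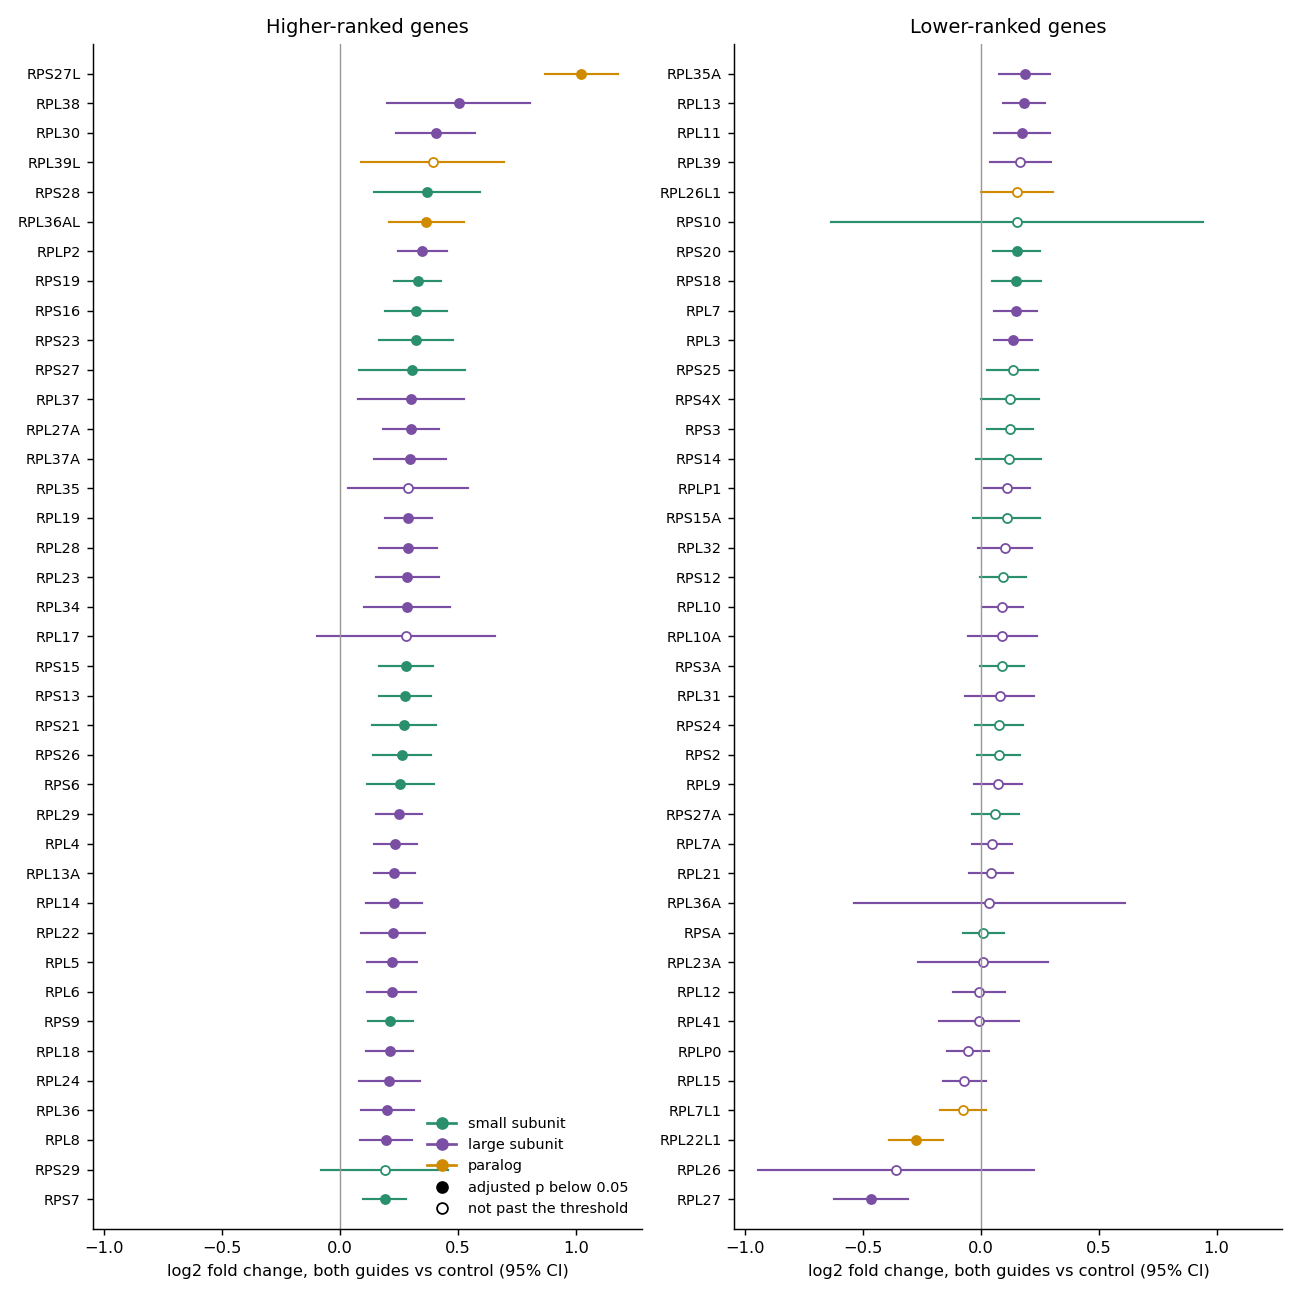
Log2 fold change of both guides against control, with its 95% confidence interval, for 78 of the 85 members, ranked in 2 columns and coloured by class; filled points passed an adjusted p of 0.05. Most genes lie between 0 and 0.5, with RPS27L alone near 1.02 at the top and RPL27 at -0.47 at the bottom.

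RPLP2 and RPS19 had the smallest adjusted p-values among the core genes that rose. RPLP2, an acidic protein of the large subunit stalk that recruits elongation factors, was at 7.81 and 7.81 log2 CPM in the controls, 8.15 and 8.12 in the KO-1 and 8.23 and 8.14 in the KO-2 libraries. The groups did not overlap, and the log2 fold change was 0.35 ± 0.05 (SE; adjusted p = 0.00046). RPS19, a small subunit protein mutated in Diamond-Blackfan anaemia, was at 8.77 and 8.77, then 9.21 and 9.13, then 8.98 and 9.07. Here too every knockout library lay above both controls, and the log2 fold change was 0.33 ± 0.05 (SE; adjusted p = 0.00049). Like RPL19, RPL27 and RPS27L, both kept their call in all 17 alternatives.

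Larger fold changes came with more scatter. RPL38, a large subunit protein, had the highest value of the core genes, 0.50 ± 0.14 (adjusted p = 0.019), with 6.10 and 6.19 log2 CPM in the controls, 6.56 and 6.52 in the KO-1 and 7.10 and 6.42 in the KO-2 libraries. KO-2 replicate 1 stood high, and without it the value was 0.33. RPL30 rose by 0.41 ± 0.08, RPS28 by 0.37 ± 0.10, RPS16 by 0.32 ± 0.06 and RPS23 by 0.32 ± 0.07, each with all 4 knockout libraries above the controls. All 5 of these genes lost their call without the variance trend. RPL38, RPS28 and RPS23 also lost it when either control library was left out, RPL38 when either KO-1 library was, RPS28 when KO-1 replicate 1 was, and RPL30 when control replicate 1 was.

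Several proteins with roles outside the ribosome were in the block. RPL5 rose by 0.22 ± 0.05 (adjusted p = 0.0067), from 9.17 and 9.19 log2 CPM in control to between 9.33 and 9.50 in the 4 knockout libraries. RPL11, its partner in binding MDM2, rose by 0.17 ± 0.05 (adjusted p = 0.034), from 8.27 and 8.33 to between 8.37 and 8.60, and its lowest knockout library was only just above the higher control. RPS6, the small subunit protein phosphorylated by the S6 kinases, rose by 0.26 ± 0.06 (adjusted p = 0.013), from 9.20 and 9.22 to between 9.38 and 9.67. The calls of RPL5, RPL11 and RPS6 were lost under quantile normalization, without the variance trend and when either control library was left out. The call of RPS6 was also lost without KO-1 replicate 1, and that of RPL11 in 9 of the 17 alternatives in all, among them both KO-1 libraries left out in turn.

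Other members did not pass the test, some of the most abundant among them. RPLP0, the stalk protein often used as a reference gene, was at 10.15 and 10.12 log2 CPM in control and 10.03 to 10.11 in the knockouts (log2 fold change -0.06, adjusted p = 0.33). RPLP1, the other acidic stalk protein, had 0.11 ± 0.05 (adjusted p = 0.087). RPSA, the small subunit protein also known as the laminin receptor, had 0.01, with a 95% confidence interval from -0.07 to 0.10. RPL12, at the base of the stalk, and RPL41, the smallest large subunit protein, each had -0.01, and RPL15 had -0.07, none past the threshold. Under quantile normalization RPL15 (-0.17, adjusted p = 0.013) and RPLP0 (-0.14, adjusted p = 0.018) did pass it. The signs of RPSA, RPL12 and RPL41 changed with the scaling of the libraries. RPL26 had the lowest value after RPL27, -0.36 ± 0.27 (adjusted p = 0.34), but it rested on KO-2 replicate 1, which was at 2.99 log2 CPM when the other 5 libraries were at 3.87 to 4.27; without that library the value was -0.04, and without KO-2 replicate 2 it was -0.68 and past the threshold.

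Ribosomal proteins made as fusions with ubiquitin, or with a ubiquitin-like protein, were looked at apart. RPS27A, the ubiquitin fusion of the small subunit, had 0.06 ± 0.05 (adjusted p = 0.35). FAU, which yields a small subunit protein, rose by 0.31 (adjusted p = 0.0071). FAU lies outside the symbol rule and is not among the 85.

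RPL27 was the core gene that fell. RPL27 (ENSG00000131469.14; chr17:42998273-43002959 in GRCh38, plus strand), a large subunit protein, was at 7.51 and 7.54 log2 CPM in the controls, 6.90 and 6.83 in the KO-1 and 7.39 and 7.11 in the KO-2 libraries, from 1972 to 4846 reads per library. All 4 knockout libraries were below both controls, KO-1 more so than KO-2. The log2 fold change was -0.47 ± 0.07 (adjusted p = 0.00091) over both guides, -0.66 (adjusted p = 0.00028) for KO-1 and -0.27 (adjusted p = 0.044) for KO-2. The difference between the guides, 0.39, had an adjusted p of 0.052 by limma. In the authors' deposited comparison of the guides it was also 0.39, with a false discovery rate of 0.034.

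The genes beside RPL27 differed among themselves. Among the 3 nearest tested genes on each side, VAT1, which starts 26.9 kb away on the opposite strand and encodes a vesicle membrane protein, fell by 1.28 (KO-1 at 5.19 ± 0.058 and KO-2 at 5.47 log2 CPM, against 6.62 ± 0.018 for control; SD, n = 2). RND2, a small GTPase gene that starts beside VAT1, fell by 0.82 (adjusted p = 0.011). IFI35, which lies between RPL27 and VAT1, had -0.38 at a mean of 0.67 log2 CPM and did not pass the threshold. On the other side, RUNDC1 had 0.09, and AARSD1 and PTGES3L, at means of 0.90 and 0.66 log2 CPM, were not called. Within 500 kb, a reach chosen after the values were seen, 5 of 33 other tested genes rose and 7 fell, with a median of -0.02. Of all genes tested, 14.6% rose and 14.9% fell.

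**Figure D3:**
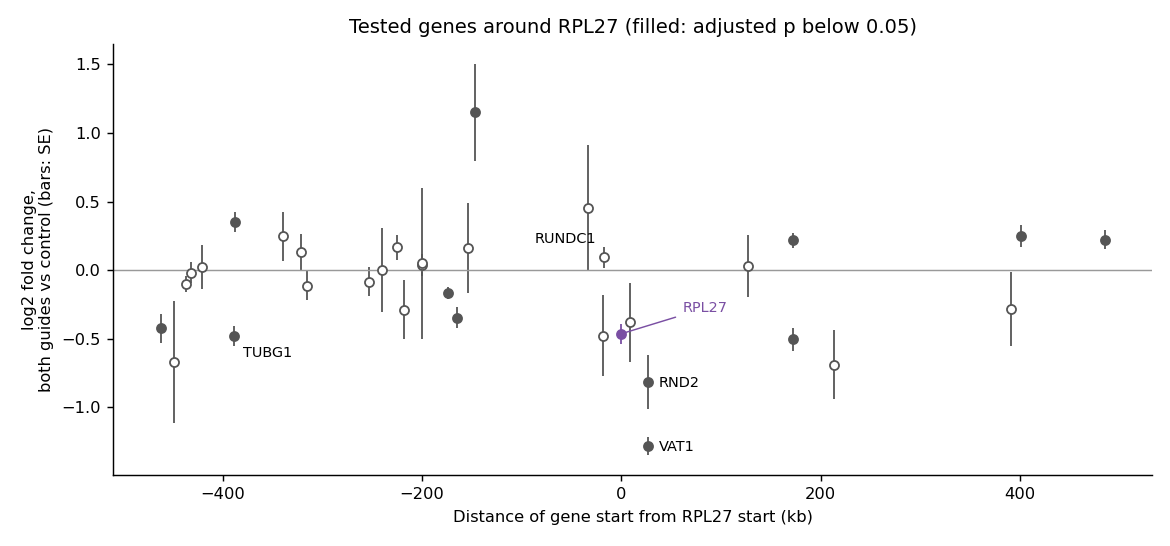
Log2 fold change of both guides against control (bars, SE) for the 33 other tested genes whose start lies within 500 kb of the RPL27 start, by distance in kb, with RPL27 in purple; filled points passed an adjusted p of 0.05. VAT1 at -1.28 and RND2 at -0.82 lie just to the right of RPL27 at -0.47, and genes further out lie on both sides of 0.

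RPS27L had the largest rise of the members that passed the test. RPS27L (ENSG00000185088.13; chr15:63125872-63158021 in GRCh38, minus strand), a paralog of RPS27 known as a direct p53 target, was at 5.75 and 5.79 log2 CPM in the controls, 6.80 and 6.89 in the KO-1 and 6.84 and 6.63 in the KO-2 libraries. The groups were separated by over 0.8 log2 units, and the fold change was 2.03, a log2 fold change of 1.02 ± 0.07 (adjusted p = 7.9e-06). Its parent RPS27 was at 7.53 and 7.50 in the controls, 7.76 and 7.68 in the KO-1 and 8.16 and 7.67 in the KO-2 libraries, and rose by 0.31 (adjusted p = 0.044); the value was 0.18 without KO-2 replicate 1, and the call was lost in 9 of the 17 alternatives, among them each control or KO-1 library left out and 3 of the 4 changes of scaling. LACTB, whose gene overlaps that of RPS27L on the opposite strand, was not called, nor were TPM1 and TLN2, while RAB8B (0.28) and APH1B (0.34) rose and CA12 (-0.16) fell. MDM2, itself a p53 target, was at 7.15 and 7.27 log2 CPM in the controls, 8.55 and 8.58 in the KO-1 and 7.98 and 7.99 in the KO-2 libraries.

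Other paralogs differed from their parent genes in several ways. RPL22L1 fell while RPL22, whose protein is known to repress RPL22L1, rose. RPL22L1 went from 7.04 and 7.03 log2 CPM in control to 6.70 and 6.68 in KO-1 and 6.82 and 6.84 in KO-2 (log2 fold change -0.27 ± 0.05, adjusted p = 0.0030). RPL22 went from 6.33 and 6.38 to 6.60 and 6.61 in KO-1 and 6.48 and 6.62 in KO-2 (0.23 ± 0.06, adjusted p = 0.019). Neither gene's knockout libraries overlapped the controls, and both calls were lost when either control library was left out, that of RPL22 also when either KO-1 library was or without the variance trend.

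RPL36AL rose by 0.37 ± 0.07 (adjusted p = 0.0036), from 6.41 and 6.62 log2 CPM to between 6.80 and 7.04, and lost the call without control replicate 1 and without the variance trend. Its parent RPL36A was counted with only 24 to 86 reads and had 0.04, with a 95% confidence interval from -0.54 to 0.61. RPL39L was at 3.45 and 3.61 in the controls, 3.79 and 3.38 in the KO-1 and 4.35 and 4.17 in the KO-2 libraries, so that KO-1 overlapped the controls and KO-2 did not. RPL39L rose with KO-2 (0.73, adjusted p = 0.012) and had 0.06 with KO-1, but the difference between the guides, 0.67, had an adjusted p of 0.072. RPL39 itself had 0.17 (adjusted p = 0.051) in the comparison of both guides. RPL26L1 had 0.15 (adjusted p = 0.12) and RPL7L1 had -0.08 (adjusted p = 0.22; -0.14 and called lower under quantile normalization), while RPL7 rose by 0.15 (adjusted p = 0.020), a call lost under quantile normalization, without the variance trend, and when any control or KO-1 library was left out. The antisense rows RPL26L1-AS1 (7 to 29 reads, 0.83) and RPL30-AS1 (23 to 57 reads, 0.63) did not pass the test.

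**Figure D4:**
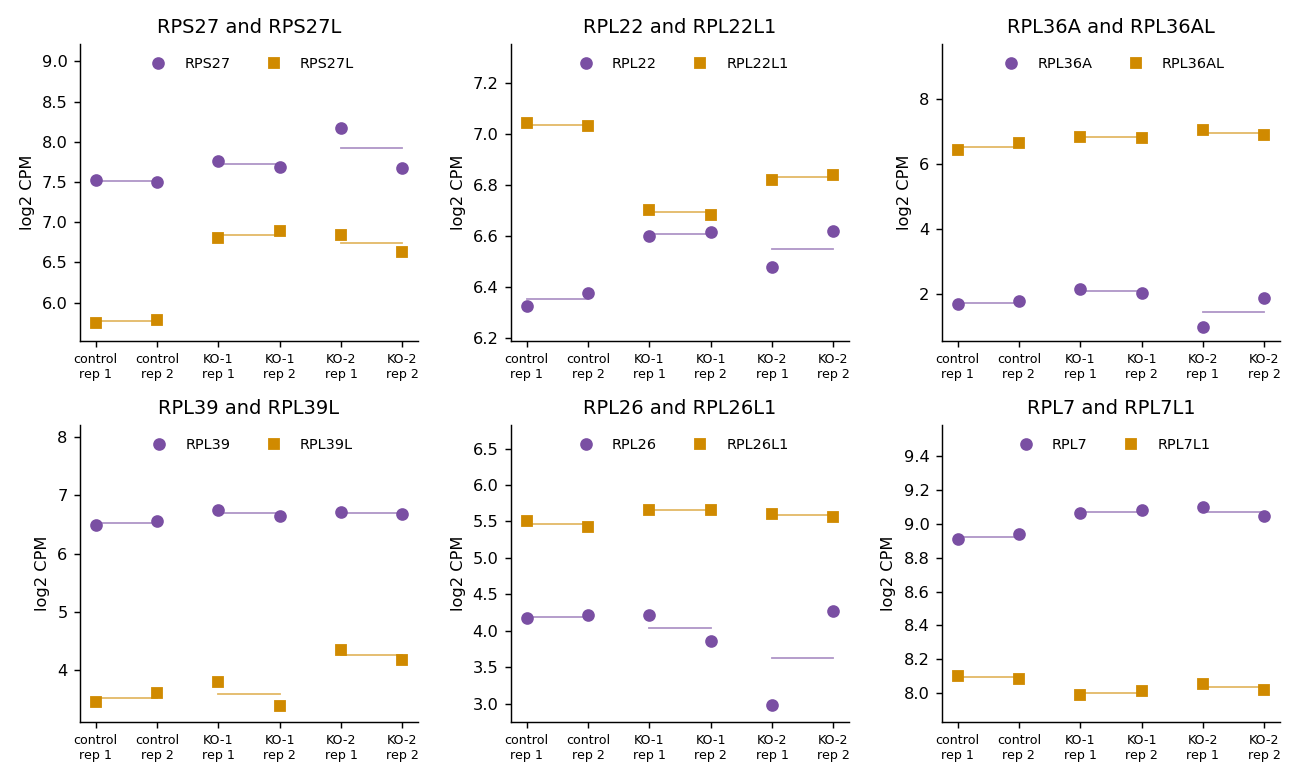
Log2 CPM of 6 paralogs (orange squares) and their parent genes (purple circles) in each of the 6 libraries, with a line at each group's mean; each panel has its own axis. RPS27L rises by about 1.02 log2 units, and RPL22 and RPL22L1 move towards each other, from 6.33 and 7.04 in control replicate 1 to 6.60 and 6.70 in KO-1 replicate 1.

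Each guide was then set against the same 2 control libraries. With KO-1, 34 of 85 members rose (14.6% of all genes) and 2 fell (15.1%), with a median of 0.17. With KO-2, 42 rose (8.73%) and 2 fell (8.19%), with a median of 0.20. The 2 that fell were RPL27 and RPL22L1 each time. In all, 29 members rose with both guides, 5 passed the threshold with KO-1 alone (RPL7, RPL8 and RPL22 among them), and 13 did so with KO-2 alone. The same 2 control libraries enter both comparisons, so the calls of the guides are not independent. The share of all genes that rose with both guides was not counted, so the overlap is a description only. The authors' deposited table gives 35 members higher and 2 lower for KO-1 (14.2% and 14.8% of its rows), and 42 higher and 2 lower for KO-2 (8.59% and 8.07%). The KO-1 count was 21 under quantile normalization (24.7% of members, 14.7% of all genes) and 5 without the variance trend (5.88%, all genes 8.08%). It was 8 and 7 when control replicate 1 or 2 was left out (9.41% and 8.24%, all genes 6.39% and 7.19%), and 5 and 9 when KO-1 replicate 1 or 2 was (5.88% and 10.6%, all genes 6.38% and 6.49%), shares near those of all genes. When KO-2 replicate 1 or 2 was left out it was 56 and 55 (all genes 22.5% and 22.6%). The KO-2 count was 1 without the variance trend (RPS27L; all genes 0.618%), 3 and 5 without control replicates 1 and 2 (3.53% and 5.88%, all genes 1.64% and 2.21%), and 22 without either KO-1 library (25.9%, all genes 4.90% and 4.91%). With KO-2, neither fall kept its call with library medians set equal, without the variance trend, or when any control or KO-1 library was left out.

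Directly compared, KO-2 and KO-1 differed in none of the 85 members by limma at an adjusted p of 0.05 (1.14% of all genes differed), and 10 members had an unadjusted p below 0.05, as did 17.3% of all genes. The highest values were RPL39L (0.67), RPL27 (0.39) and RPS29 (0.32), and the lowest were RPL36A (-0.67) and RPL26 (-0.41). The authors' deposited table gives 1 member higher (RPL27) and 0 lower in this comparison (0.507% and 0.981% of its rows). KO-2 replicate 1 decided much of it. Without KO-2 replicate 2, which leaves KO-2 replicate 1 alone and assumes that it varies like the other groups, 40 members differed (23.0% of all genes); without KO-2 replicate 1, only RPL27 did (5.35% of all genes). In KO-2 replicate 1 the core genes' deviations from the control mean had an SD of 0.30, against 0.12 to 0.18 in the other knockout libraries, and ran from -1.21 (RPL26) to 0.95 (RPL38). The part of depth in this scatter was not tested.

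**Figure D5:**
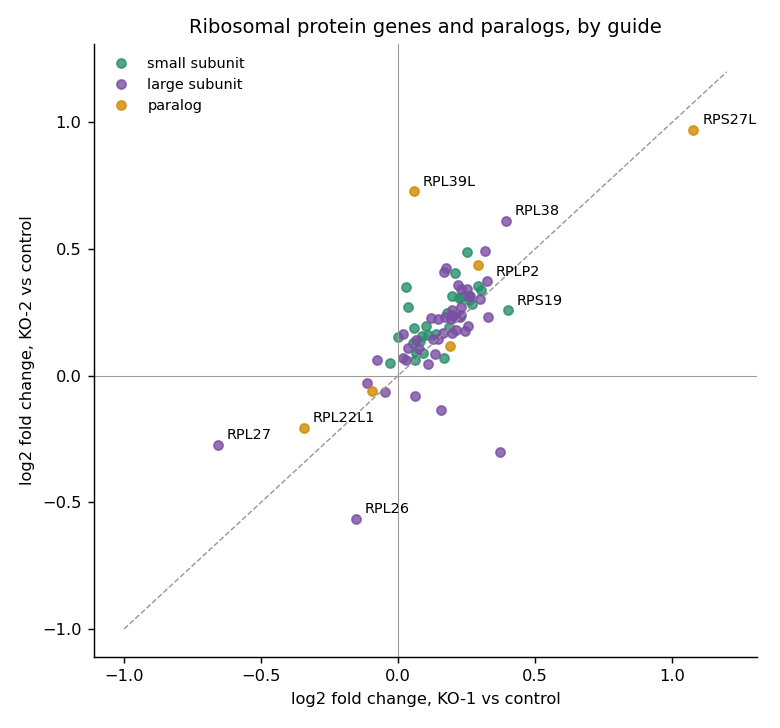
Log2 fold change of KO-1 (x axis) and KO-2 (y axis) against the same control libraries for the same 78 members, coloured by class, with the line of equal change dashed. Most genes lie in the upper right; RPS27L is at 1.08 and 0.97, RPL27 at -0.66 and -0.27, and RPL39L at 0.06 and 0.73.

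Some genes that share the ribosomal proteins' mode of translational control also rose. The tested list held 16 elongation factor and other TOP genes, and 8 rose while 0 fell (median 0.17). Of all genes tested, 14.6% rose and 14.9% fell, and 28.1% of other genes with a mean of at least 7 log2 CPM rose. In the list 12 of 16 were above 0, and 1 was called lower with KO-1. EEF2, the elongation factor that moves the ribosome along, rose by 0.29, EIF4B by 0.29, TPT1 by 0.27 and EEF1A1, which delivers aminoacyl-tRNA, by 0.26. The list was drawn up with earlier results of these data known.

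Among the genes that build ribosomes, the shares called were near those of all genes (14.6% higher and 14.9% lower). Of 42 ribosome biogenesis factors, 5 rose (RRS1, WDR43, NOB1, SBDS and NSA2) and 5 fell (FBL, NOP56, NOP10, BOP1 and UTP4), named in full after their values were seen, with a median of 0.01. The nucleolar factors BOP1 (-0.46) and UTP4 (-0.40) had the largest falls, followed by NOP56 (-0.29) and FBL (-0.21), both of the complex that methylates ribosomal RNA. Of 15 genes of the RNA polymerase I machinery, which transcribes ribosomal RNA, RRN3 (0.36) and TAF1D (0.36) rose and POLR1E (-0.26) fell, with a median of -0.01. The 79 genes for mitochondrial ribosomal proteins had a median of 0.02, 7 rising (8.86%) and 7 falling, smaller shares than those of all genes. MRPS25 (-0.52), MRPL24 (-0.45), MRPS16 (-0.38) and MRPL37 (-0.34) were among those that fell. MRPL46 (0.58), MRPL54 (0.50), MRPS6 (0.36) and MRPL49 (0.33), named after their values were seen, were among those that rose.

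Among 20 regulators of ribosomal protein synthesis and surveillance, 8 rose (14.6% of all genes tested did) and MTOR and EIF4EBP2 fell (14.9%). The median was 0.17. MTOR, the kinase upstream of TOP translation, went from 7.46 and 7.53 log2 CPM in control to 6.70 and 6.53 in KO-1 and 6.91 and 6.89 in KO-2 (log2 fold change -0.74). EIF4EBP2, a translation repressor that mTOR phosphorylates, had -0.44, and LARP1 had 0.06 (adjusted p = 0.40). Other genes of this kind went the other way. By limma EIF4EBP1 rose by 0.20 (adjusted p = 0.043) and the S6 kinase gene RPS6KB1 by 0.18 (adjusted p = 0.044), both named after their values were seen. MDM2 rose by 1.07 and MAP3K20, the kinase that senses stalled ribosomes, by 0.32. MYC, a transcription factor that drives ribosome production and was named with LARP1 after their values were seen, rose by 0.26 (adjusted p = 0.014). These are RNA levels, and protein or translation was not measured.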

How the data were processed

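Reads were processed by the authors with fastp, STAR 2.7, featureCounts (Subread 2.0) and edgeR on hg38, as far as the submitters' processing notes list tools without roles; settings and annotation are not given. The authors deposited log2 CPM values of 14788 genes in 6 libraries, and their own comparisons with log2 fold changes and p-values. Each value equals a whole number of reads within 0.01 once the prior of 0.102 CPM is removed (100% of values). The recovered totals are scaled by library factors of 0.986 to 1.017 whose product is 1. Both control factors (1.017 and 1.013) were above those of the knockout libraries (0.986 to 1.000).

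Genes with at least 0 log2 CPM in at least 2 libraries were kept (13765; 1023 removed). limma 3.58.1 in R 4.3.3 was fitted to the deposited log2 CPM of all 6 libraries in 3 groups, with a variance trend; fold changes are thus on the log2(CPM + prior) scale. Both guides vs control is the mean of the 2 knockout groups minus control. Adjusted p-values are Benjamini-Hochberg over all genes tested, two-sided, with a threshold of 0.05. The fit was tested on simulated data. Members and gene lists were chosen with earlier results of these data known. Named genes were the 8 highest and 6 lowest core genes, the 3 highest and 3 lowest between the guides, and fixed members (paralogs with their parents, stalk, MDM2-binding and fusion genes); of other lists, up to 4 with the smallest p. Gene positions are from GENCODE v29 (GRCh38). Gene starts of 17 members, RPL30-AS1, RPL5, RPL7, RPL8, RPL23, RPL23A, RPL30, RPL37, RPL39L, RPS2, RPS15A and RPS20 among them, were not used here. Some genes that these rules name are counted but not reported by name here. Alternatives covered the filter, pseudocount, scaling, variance model, grouping, replicate block and each library left out.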

Additional observations from a re-analysis of the deposited data

How the results depend on the processing

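The count of members that rose over both guides was 5 without the variance trend (5.88%, all genes 7.48%) and 13 to 62 with 1 library left out (15.3% to 72.9%, all genes 5.17% to 21.6%). The count that fell was 5 under quantile normalization (RPL27, RPL22L1, RPL15, RPLP0 and RPL7L1; all genes 14.4%) and 1 to 6 with 1 library left out. For KO-1 the count that rose was 21 under quantile normalization (all genes 14.7%), 5 without the trend (all genes 8.08%) and 5 to 56 with 1 library left out; for KO-2 it was 1 without the trend (all genes 0.618%) and 3 to 58. Between the guides, 1 member (RPL27) was called with log2 of CPM + 1 and under quantile normalization. RPL27 alone was also called with library totals taken without the ribosomal protein genes, and with no scaling factor (chosen after seeing the data). The share of all genes called in these fits is not given here. The number of members called also varied with the library left out. The median over members was 0.24 with library medians set equal, 0.14 under quantile normalization, 0.16 with totals without the ribosomal protein genes and 0.16 with no scaling factor. Of all genes called, 49.4% were higher, against 61.7% with library medians set equal, 42.0% with totals without the ribosomal protein genes and 40.9% with no scaling factor. RPL41 was at 0.038 with medians set equal and -0.093 to 0.076 with 1 library left out. RPL12 was at 0.038 with medians set equal and -0.046 to 0.030 with 1 library left out. RPL36A ranged from -0.19 to 0.27 with 1 library left out. RPSA was at -0.10 under quantile normalization, -0.018 with totals without the ribosomal protein genes, -0.022 with no scaling factor and -0.0051 to 0.027 with 1 library left out. The cause was not tested, except that the left-out fits have fewer libraries. In 543 refits of 32 named members, 444 kept the direction and the side of the threshold, 63 lost the call, 25 gained it and 11 changed sign. Replicate numbers showed no visible shared effect between groups: deviations of same-numbered libraries correlated at -0.05, 0.04 and -0.04. Whether same-numbered libraries were made together cannot be told from this. With the replicate block, 45 members rose (all genes 13.5%) and 2 fell (all genes 13.9%) over both guides. In that fit 30 rose for KO-1 (all genes 13.6%) and 40 for KO-2 (all genes 7.66%), and 0 differed between the guides. With 2 libraries a group, changes of the members' size are near the limit of what this test calls, and RPS10, RPL36A and the antisense rows are limited by reads.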

Other observations

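The rows named as numbered pseudogenes of ribosomal proteins, left out of the members, held 0.025% to 0.032% of reads in each library. Of 76 such rows, 55 passed the filter. RPS24P17 (1.03) and RPSAP70 (0.84) rose over both guides (3.64% of the 55) and none of the 55 fell at an adjusted p of 0.05 by limma. Of all genes tested, 14.6% rose and 14.9% fell. The median log2 fold change of the 55 was 0.21. Reads of a processed pseudogene and of its parent gene can be hard to separate, and the part of such reads in these values was not tested.

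The genes outside the members that most closely followed the members' mean log2 CPM over the 6 libraries were KRT19 (Pearson r = 0.999), an epithelial keratin, PLAAT4 (0.998), KANK1 (0.996), SNRPA1 (0.995), a spliceosome protein, and SP1 (0.995), a transcription factor. These are the highest of the tested genes outside the members, those with a low mean level left out, over 6 points in 3 groups, given as a description. In the order control, KO-1, KO-2, the group means were 8.26, 8.67 and 8.79 log2 CPM for KRT19, 3.42, 4.33 and 4.60 for PLAAT4, and 7.81, 8.04 and 8.10 for SP1.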
